A study of Mus musculus with 4 samples.

Results

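The circadian clock genes measured here were Arntl (also called Bmal1), Clock, Per1, Per2, Per3, Cry1, Cry2, Dbp, Nr1d1 and Nr1d2, 10 of the 36161 gene names on the array. They were chosen by name, and every non-control probe that carried one of these names was taken, which gave 14 of 55681 probes. All 10 genes had at least 1 probe without an outlier flag of the scanner software, as had 35577 genes in all. The measurements came from whole liver of inbred mice, with 1 array for each of 4 groups. These were females of the microsomic group (MF) and of the control group (CF), and males of the microsomic group (MM) and of the control group (CM). Microsomic (M) animals are pups whose birth weight lay at the low end for their sex, and control (C) animals were littermates with a weight near the colony mean. Per the labels all 4 groups were C57BL/6J at embryonic day 20, whereas the methods of the study describe newborn C57BL/6 N mice and replicate experiments for each group. No group carried a transgene or a treatment. The sources do not say whether RNA was pooled over animals before hybridization, and the hour of collection was not given in the sources used here.

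The clock is a feedback loop of transcription that runs in nearly every cell. ARNTL and CLOCK pair on E-box sequences and switch on the Per and Cry genes, whose proteins return to the nucleus and shut ARNTL and CLOCK down. The nuclear receptors NR1D1 and NR1D2 (REV-ERB alpha and beta) repress Arntl, and DBP, a bZIP factor that binds D-box sequences, carries the rhythm to liver genes of metabolism and detoxification. In adult liver the transcripts of these genes rise and fall over the day, and in rodents the rhythm of the liver matures around and after birth.

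Where a gene has 2 probes, they can read different transcripts or different stretches of a transcript. For Per1 in both sexes and Cry2 in males the direction depended on the probe, while the probes of Dbp and of Nr1d2 gave the same directions. The cause of the disagreements was not tested. The probes of the 4 genes with 2 probes each, and that of Nr1d1, are therefore shown. Each probe has 60 bases, and the first 30 are given 5′ to 3′ in lower case, except that the probe of Nr1d1 is given whole because its 60 bases are spread over 503 bases of the genome, that is, over more than 1 exon.
Per1 A_55_P2019327: ttagtgtttcagggcagtagaggtggccgg
Per1 A_55_P1970033: gtgttctcagctctaccctctaccaatgac
Cry2 A_55_P2016540: tctcccacagtttgtttgtgaatatttacc
Cry2 A_55_P1953708: tcctcctgagtgctggaaattcagatacga
Dbp A_55_P2032079: tggggaacccatccatccaaccgcctccat
Dbp A_55_P2032081: atggccagtggtctggccagctaggtgccc
Nr1d2 A_55_P2148534: ctgtgaggggagctcagatagatgtatctt
Nr1d2 A_52_P303891: ccagaactgttagtattgcttgtgatgctt
Nr1d1 A_51_P223776: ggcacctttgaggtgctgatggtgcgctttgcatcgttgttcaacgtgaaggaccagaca
On the mouse build mm9, on which the array annotation places them, the Per1 probes lie at chr11:68919895-68919954 (on the transcript AK081813) and at chr11:68923364-68923423 (on NM_011065), both on the plus strand, with 3469 bases between their starts. The Cry2 probes lie at chr2:92243807-92243866 (NM_009963) and chr2:92251417-92251476 (NM_001113333) on the minus strand, 7610 bases apart, and belong to different transcripts. The Dbp probes read the same transcript, NM_016974, 139 bases apart, at chr7:52965461-52965520 and chr7:52965322-52965381 on the plus strand. Those of Nr1d2 lie 685 bases apart, at chr14:19036568-19036627 (BC096461) and chr14:19037253-19037312 (NM_011584), and that of Nr1d1 at chr11:98630526-98631028 (NM_145434), all on the minus strand. The other genes have 1 probe each, namely Arntl at chr7:120457261-120457320 on the plus strand, and Clock at chr5:76641377-76641436, Per2 at chr1:93313046-93313105, Per3 at chr4:150379256-150379315 and Cry1 at chr10:84594731-84594790, all on the minus strand. No exon map of mm9 was used here, so the place of a probe in its exon is not given.

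Sequences through which clock proteins act on their own genes were looked up in the 250 bases before the gene start, for the 9 of the 10 genes that the RefSeq promoter table of GRCm38.p6 holds (Per2 is not among them). The E-box CACGTG, whose letters read the same on both strands, was found before Per1 and Cry1, 2 of 9, and before 6.86% of all 27025 genes of the table. The D-box, searched as TTATGTAA or TTACGTAA on both strands, was found before Per3 alone, and before 1.1% of all genes. The sequence AGGTCA, to which nuclear receptors bind and which was also searched on both strands, was found before Clock, Per1 and Nr1d2, 3 of 9, and before 15.8% of all genes. The E-box and D-box matches, with the motif in capitals and its neighbouring bases in lower case, read as follows.
Per1 E-box, chr11:69098756-69098815, plus strand: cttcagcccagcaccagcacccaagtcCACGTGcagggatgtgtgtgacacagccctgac
Per3 D-box, chr4:151044836-151044897, minus strand: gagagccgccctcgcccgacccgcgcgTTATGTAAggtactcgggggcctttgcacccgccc
Per3 D-box, chr4:151044789-151044850, minus strand: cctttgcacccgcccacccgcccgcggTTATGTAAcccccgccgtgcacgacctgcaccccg
Cry1 E-box, chr10:85185082-85185141, minus strand: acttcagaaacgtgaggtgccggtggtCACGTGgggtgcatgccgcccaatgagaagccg
These matches describe the letters of the windows and are no measurement of binding.

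Each value below is a level on a log2 scale, the processed signal of the probe relative to the 75th percentile of its array, so that 0 is the signal of a probe at that percentile. A probe's level can be set against its own level on another array but not against another probe's. Of the 59305 non-control spots, the array software marked 63.7% on MF and 65.3% on MM as well above background, against 57.7% on CF and 56.1% on CM. Where a probe was not well above background, a difference is only a lower bound. With 1 array per group no difference between 2 arrays has a replicate check, and no p-value is given for one. Probes printed 10 times on each array gave the only direct error, which covers spots of 1 array: the SD of a single spot was 0.27 to 0.33 (log2), so that a difference of 2 single spots had an SD of 0.44 for MF vs CF and 0.42 for MM vs CM.

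The hepatocyte markers bore out the tissue label, since all 10 (Alb, Afp and the like) were well above background on all 4 arrays. The arrays also differed in genes of other organs. Genes of the intestine (Vil1, Lct, Cdx2 and others, 9 with a usable probe) were well above background in 8 of 9 cases on MF and in 4 of 9 on each other array, and their summed level, in units of the 75th percentile, was 77.1 on MF against 38.0 on MM, 8.21 on CF and 11.3 on CM. Vil1, which encodes villin of the gut brush border, stood at 0.76 on MF and between -3.77 and -2.52 on the other arrays. Genes of the heart (Myh6, Actc1, Myl2 and others, 10 in all) had a summed level of 183 on CF against 0.89 on MF, 1.07 on MM and 2.75 on CM. Myl2, a myosin light chain of the cardiac ventricle, stood at 5.76 on CF and between -4.63 and -1.13 elsewhere. MF vs CF thus set an array with gut transcripts against an array with heart transcripts. In males the intestine sum differed mostly through Fabp2, a fatty acid binding protein of the gut, at 4.98 on MM and 2.59 on CM. Of 9 heart genes compared in males, 5 were lower and 1 higher in MM than in CM (median -1.48), beside 23.1% and 17.5% of all genes. The clock genes are expressed in gut and heart too. The part of these transcripts in the MF vs CF and MM vs CM values below was not tested. Within liver, too, fewer cells of a type and less RNA per cell cannot be told apart.

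**Figure D1:**
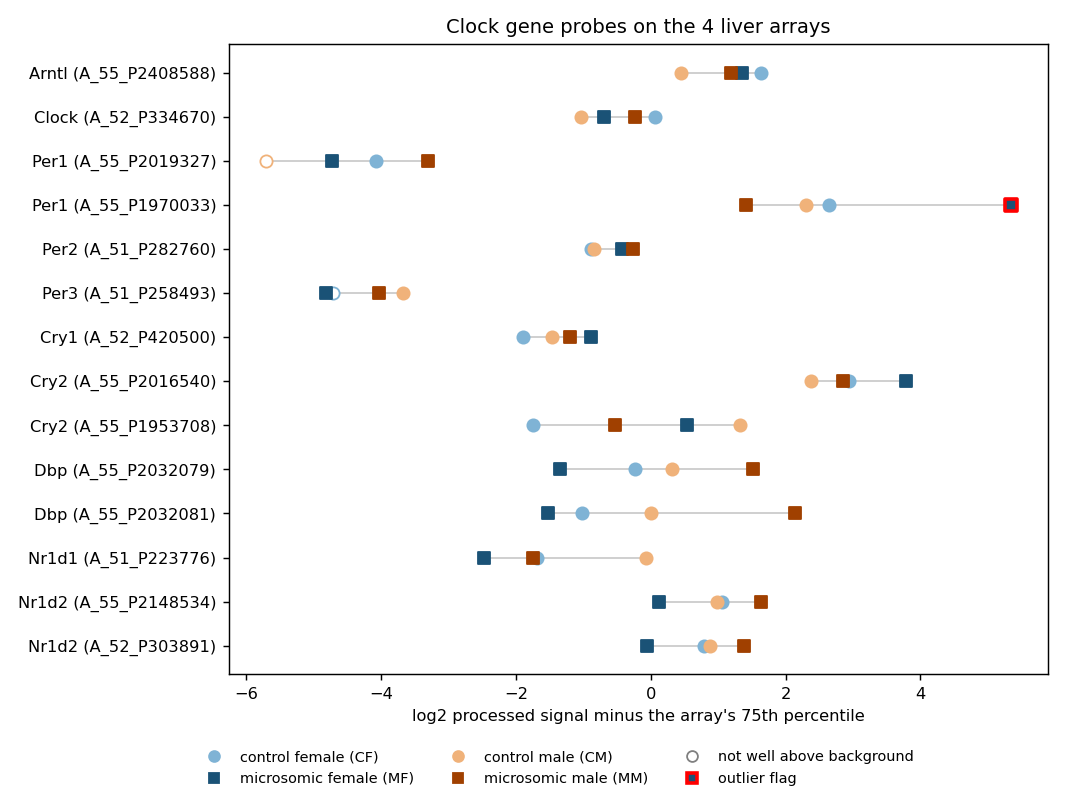
Level of each of the 14 clock gene probes on the 4 arrays (horizontal axis, log2 processed signal relative to the array's 75th percentile), with 1 point per array, squares for M and circles for C. The open circles mark the 2 values not well above background (Per1 on CM, Per3 on CF) and the red outline the outlier flag on MF. Both Dbp probes run in the order MF, CF, CM, MM, and Nr1d1 is highest on CM at -0.07.

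Between microsomic and control liver, more of the clock genes past 1.5-fold were lower than higher in females, and more were higher in males. In females this held with the scaling to the 75th percentile but not without scaling, where 3 genes were higher and 1 lower in MF than in CF. With normexp and quantile normalization 1 was higher and 2 lower, though the median was 0.07. At a 2-fold threshold 1 was higher and 1 lower. In MF vs CF, 7 of 10 genes passed 1.5-fold, against 40.9% of all 25538 genes compared. Cry1 and Cry2 were higher in MF (2 of 10, against 19.9% of all genes), and Clock, Per1, Dbp, Nr1d1 and Nr1d2 were lower (5 of 10, against 21.1%). In MM vs CM, 6 of 10 genes passed, against 40.6% of all 26315 genes compared. Arntl, Clock, Per1, Dbp and Nr1d2 were higher in MM (5 of 10, against 17.5%), and Nr1d1 was lower (1 of 10, against 23.1%). The median difference of the 10 genes was -0.47 in females and 0.62 in males (log2), where that of all genes compared was -0.06 in each. With this many of all genes past the same fold, a single clock gene past 1.5-fold says little. The 2 comparisons share no array.

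Clock, Per1, Dbp and Nr1d2 passed 1.5-fold in opposite ways in the sexes, 4 of 10 genes, against 9.81% of the 23967 genes compared in both. Nr1d1 alone passed the same way in both, 1 of 10, against 6.93%. Set against 2 SD of a difference of single spots (0.88 in females, 0.85 in males), 3 of 10 genes were larger in each comparison. The share of all genes past 2 SD was not counted, so this count has no background beside it. In females 10.6% of all genes were higher by at least as much as Cry1 (1.01), and 9.86% lower by at least as much as Nr1d2 (-0.94). In males 5.29% were higher by at least as much as Dbp (1.21), and 6.24% lower by at least as much as Nr1d1 (-1.67). Of the 4 opposite genes, Dbp alone was past 2 SD in both sexes. Nr1d2 was past it in females only, Per1 in males only and Clock in neither. The male value of Per1 is a bound from its dim probe, and its bright probe was past 2 SD the other way in males (-0.89).

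**Figure D2:**
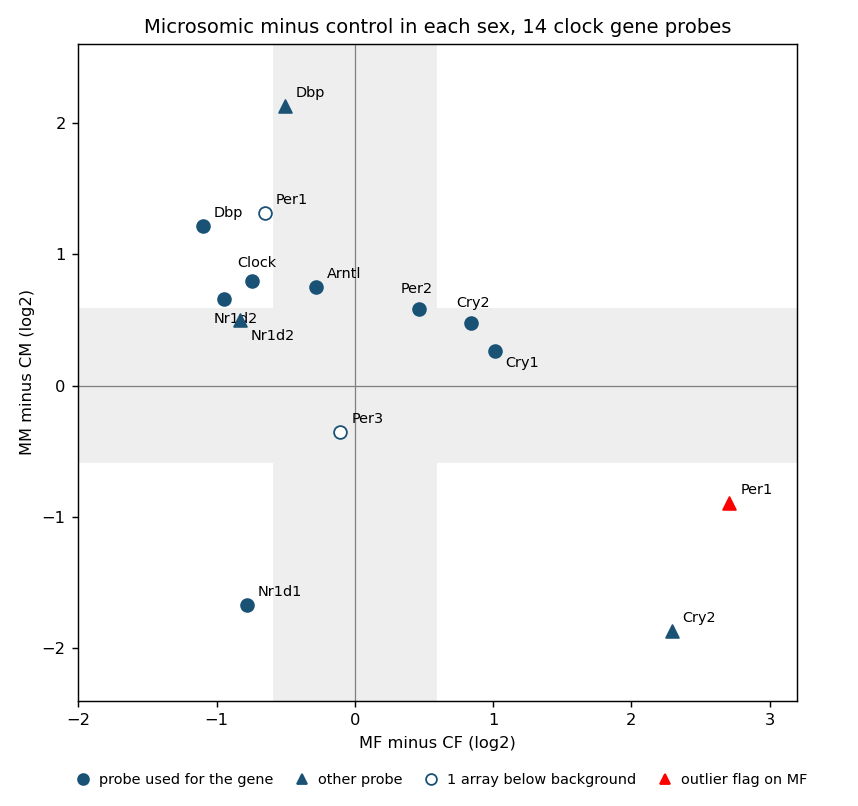
Difference M minus C in females (horizontal axis, MF minus CF, log2) against that in males (vertical axis, MM minus CM, log2) for the 14 probes. The grey bands hold differences under 1.5-fold. Circles are the probes used for the gene, open where 1 array was below background (Per1 and Per3), and triangles are the other probes. Clock, Dbp, Nr1d2 and the dim Per1 probe lie at the upper left (lower in MF, higher in MM), Nr1d1 lies at the lower left, and the other Per1 and Cry2 probes lie at the lower right.

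The activators Arntl and Clock were lower in MF than in CF and higher in MM than in CM, by under 1.8-fold in each case. Arntl, the partner without which the loop stops, had levels of 1.36 on MF, 1.64 on CF, 1.20 on MM and 0.45 on CM. The control male was thus the low array, and the difference was -0.28 (log2) in females and 0.75, or 1.68-fold higher, in males. The female difference of Arntl was under the SD of a difference of single spots (0.44). Its sign turned with normexp and quantile normalization (0.20) and without scaling (0.12). Clock, which encodes the histone acetyltransferase partner of ARNTL, read -0.69 on MF, 0.06 on CF, -0.23 on MM and -1.03 on CM. It was 1.68-fold lower in MF (-0.75) and 1.73-fold higher in MM (0.79), and again CM was lowest. Both genes were lower in CM than in CF, by 2.29-fold for Arntl and 2.12-fold for Clock, so the arrays of control mice differed from each other more than M from C in either sex.

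The Per genes encode the repressors that set the length of the cycle, and Per1 and Per2 also respond quickly to hormones and feeding. Per2 had levels of -0.42 on MF, -0.88 on CF, -0.26 on MM and -0.84 on CM. Both M arrays lay above both C arrays, by 0.46 in females and 0.58 in males, and neither difference reached 1.5-fold, which is 0.585 on this scale. Per3, whose loss leaves the central rhythm almost intact, was dim, with -4.82 on MF, -4.71 on CF (not well above background), -4.03 on MM and -3.67 on CM. It gave no fold in females, and in males the difference was -0.36.

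Per1 was read differently by its 2 probes. The probe on NM_011065 was bright, at 5.35 on MF, 2.64 on CF, 1.42 on MM and 2.31 on CM, and its MF spot carried an outlier flag of the software, so that this probe was left out on all arrays. Its differences were 2.71 in females, 6.54-fold higher, and -0.89 in males, 1.85-fold lower. The probe on AK081813, which then stood for the gene, was close to background, with -4.73 on MF, -4.08 on CF, -3.31 on MM and -5.71 on CM, the last not well above background. It was 1.57-fold lower in MF (-0.65) and at least 2.48-fold higher in MM (a bound of 1.31, measured as 2.40). The probes thus gave opposite directions in both sexes, and the Per1 calls rest on which of them is read. In males, where neither array of the pair carried the flag, the bright probe still read -0.89.

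Cry1 and Cry2 encode the repressors that bind the PER proteins and block ARNTL and CLOCK. Cry1 stood at -0.89 on MF, -1.90 on CF, -1.20 on MM and -1.46 on CM. Both M arrays were above both C arrays, by 2.01-fold in females (1.01) and by 1.20-fold in males (0.26). For Cry2 the brighter probe gave 3.79 on MF, 2.95 on CF, 2.86 on MM and 2.38 on CM, with M above C by 1.79-fold in females (0.84) and 1.39-fold in males (0.48). The other Cry2 probe, on a different transcript, gave 0.54 on MF, -1.75 on CF, -0.53 on MM and 1.33 on CM. It was 4.89-fold higher in MF (2.29) and 3.64-fold lower in MM (-1.87), so the probes pointed the same way in females and opposite ways in males. This second probe holds 4 windows of 5 bases made only of C and T, with at least 3 C. Over all probes with at least 4 such windows the median of MM minus CM was -0.44, against 0.03 for those with 0. The part of this in the Cry2 values was not tested. Of the repressors with probes well above background on all arrays and no flag, Per2, Cry1 and Cry2 by its brighter probe had M above C in both sexes. In males the sign turned for Cry1 with normexp and quantile normalization (-0.20) and with the GC trend removed (-0.06), and for Cry2 with the mean over its probes (-0.69).

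Nr1d1 was the gene past 1.5-fold in the same direction, lower in M, in both sexes. Its levels were -2.47 on MF, -1.69 on CF, -1.75 on MM and -0.07 on CM. The 2 M arrays and CF lay within 0.78 of each other, while CM stood apart above them. Nr1d1 was 1.72-fold lower in MF (-0.78) and 3.19-fold lower in MM (-1.67). Of all genes compared, 14.0% were lower by at least as much in females and 6.24% in males. With background correction by normexp and quantile normalization, the female difference turned to 0.07. In CM it was 3.07-fold higher than in CF, a difference close in size to that between M and C males.

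Nr1d2, which overlaps Nr1d1 in function, did not follow it. Its probe on BC096461 gave 0.12 on MF, 1.06 on CF, 1.64 on MM and 0.99 on CM, and that on NM_011584 gave -0.05 on MF, 0.78 on CF, 1.38 on MM and 0.88 on CM. On both probes the C arrays were close together, MF lay below them and MM above. The first probe was 1.92-fold lower in MF (-0.94) and 1.58-fold higher in MM (0.66), and the second 1.78-fold lower (-0.83) and 1.41-fold higher (0.50), so they differed from each other by 0.11 in females and 0.16 in males. This was the closest match of any of the 4 genes with 2 probes. The male value was the smaller of the pair and passed 1.5-fold by the first probe only.

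Dbp differed more than any other clock gene between MF and MM on the probes used for the genes, with the C arrays in between. Its probe at chr7:52965461-52965520 read -1.34 on MF, -0.24 on CF, 1.52 on MM and 0.31 on CM, and its probe at chr7:52965322-52965381 read -1.52 on MF, -1.01 on CF, 2.13 on MM and 0.00 on CM. In both, MF was lowest and MM highest. Dbp was 2.14-fold lower in MF (-1.10) and 2.32-fold higher in MM (1.21) by the first probe, and 1.42-fold lower (-0.51) and 4.38-fold higher (2.13) by the second. In females 7.29% of all genes were lower by at least as much as the first probe, and in males 5.29% were higher by at least as much. The microsomic arrays, which differ in sex, differed by 2.86 (7.27-fold) by the first probe and 3.65 (12.6-fold) by the second, and 0.785% of all genes were higher on MM than on MF by at least as much as the first probe.

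Between the sexes, with the same arrays as above, 4 of 10 clock genes passed 1.5-fold in CM vs CF, against 46.1% of all genes, and 6 of 10 in MM vs MF, against 48.9%. In CM vs CF, Arntl and Clock were lower and Nr1d1 and Per3 higher, the last at least 2.05-fold. In MM vs MF, Cry2 was 1.91-fold lower, and Per1, Per3, Dbp, Nr1d1 and Nr1d2 were higher. Per1 and Per3 were read by dim probes here. The bright Per1 probe, flagged on MF, gave the opposite direction (-3.93, against 1.42 by the dim probe).

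Taking the sexes as the only replicates, M vs C was fitted over all 4 arrays by limma with sex as a term, which left 1 residual degree of freedom. Of 19303 genes well above background on all arrays, 0 passed an adjusted p of 0.05, and 853 had an unadjusted p below 0.05. Of the clock genes, 8 could be tested, and none passed, with limma adjusted p of 0.995 to 0.999. Nr1d1 had the largest difference, -1.23 ± 0.44 (log2, SE; limma unadjusted p = 0.0260, adjusted p = 0.995), lower in M in 2 of 2 sexes. Its female difference turned to 0.07 with normexp and quantile normalization. Cry2 at 0.66 ± 0.42, Cry1 at 0.64 ± 0.43 and Per2 at 0.52 ± 0.41 were higher in M in both sexes, with the exceptions in males given above for Cry1 and Cry2. Dbp at 0.06 ± 0.59, Clock at 0.02 ± 0.50 and Nr1d2 at -0.14 ± 0.51 came out near 0, since their sexes moved in opposite ways, and Arntl gave 0.23 ± 0.45. Per1 and Per3 were not tested, being below background on 1 array each. In data simulated for this fit, a change of 2 (log2) was recovered for 0 of 200 genes and a change of 4 for 194 of 200, and all differences of clock genes in this fit were smaller than 2.

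The other genes of the loop were split in each sex. Of 11 compared (nuclear receptors of the ROR family, the PAR bZIP factors Tef and Hlf, the repressors Nfil3 and Bhlhe40, and others), 3 were higher and 2 lower in MF, with a median of 0.11, and 1 was higher and 4 lower in MM, with a median of -0.47. For all genes compared the shares were 19.9% higher and 21.1% lower in MF, and 17.5% higher and 23.1% lower in MM. None of these 11 genes passed 1.5-fold the same way in both sexes, as 6.93% of all genes did. Of 12 genes that modify clock proteins or set their turnover (kinases, ubiquitin ligase subunits, the deubiquitinase Usp2 and the deacetylase Sirt1), 2 were higher and 2 lower in MF (median -0.17) and 3 higher and 1 lower in MM (median 0.26). Prkaa1, a catalytic subunit of the AMP-activated kinase, which marks CRY proteins for degradation, passed 1.5-fold the same way in both sexes, 1 of 12 beside 6.93% of all genes, with levels of 1.48 on MF, 0.55 on CF, 1.46 on MM and 0.19 on CM. Both M arrays lay above both C arrays, by 0.92 and 1.27.

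Of 10 genes that the adult liver clock is known to drive, most of them in metabolism but among them the cell cycle regulators Wee1 and Cdkn1a, 2 were higher and 2 lower in MF (median -0.13), and 5 were higher and 0 lower in MM (median 0.41). Wee1 was one of the 5 (1.39) and Cdkn1a one of the 2 higher in MF (0.95). Rgs16, a regulator of G protein signalling, passed the same way in both sexes, 1 of 10 beside 6.93% of all genes, with 4.05 on MF, 2.49 on CF, 2.85 on MM and 1.46 on CM. It was higher in M by 1.56 in females and 1.39 in males, and the M arrays lay above the C arrays. These counts stand beside 40.9% of all genes past 1.5-fold in females (19.9% higher, 21.1% lower) and 40.6% in males (17.5% higher, 23.1% lower).

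**Figure D3:**
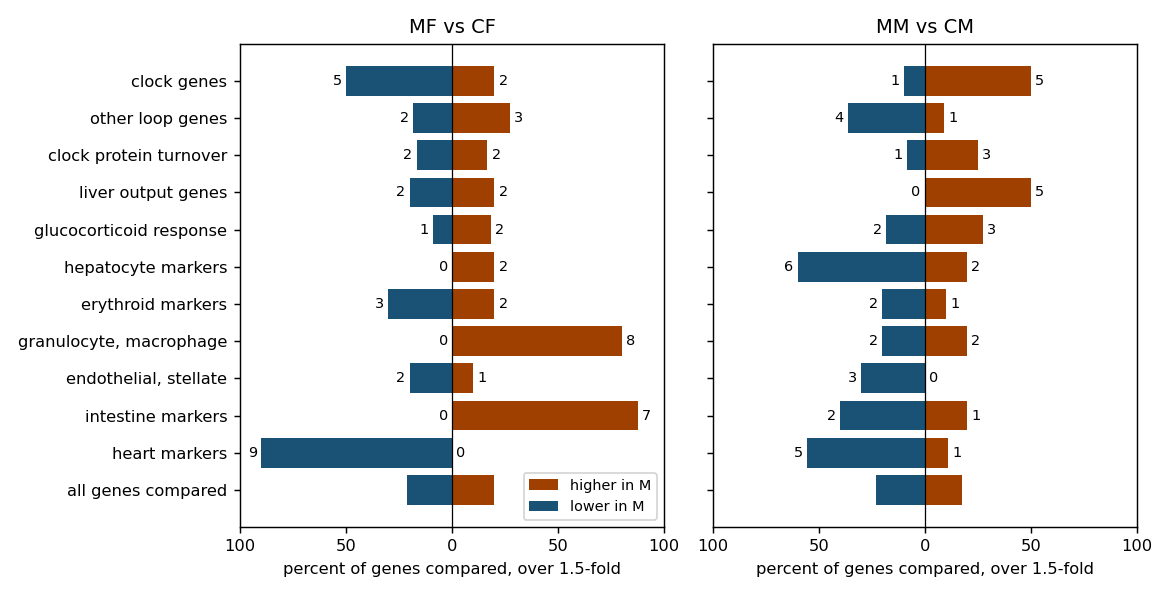
Share of the genes compared in each list (horizontal axis, percent) that were over 1.5-fold higher (orange, to the right) or lower (blue, to the left) in M than in C of the same sex, with the number of genes beside each bar. The clock genes run 2 higher and 5 lower in MF vs CF and 5 higher and 1 lower in MM vs CM, and the intestine and heart markers stand out in MF vs CF.

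Markers of the cell types of perinatal liver were counted in the same way, beside all genes, of which 19.9% were higher and 21.1% lower in MF and 17.5% higher and 23.1% lower in MM. Of 10 markers of granulocytes and macrophages, 8 were higher in MF than in CF and 0 lower (median 0.87), and in males 2 were higher and 2 lower. Their summed level was 1818 on MF, 886 on CF, 944 on MM and 1227 on CM. Of 10 hepatocyte markers, 2 were higher and 0 lower in MF, and 2 were higher and 6 lower in MM (median -0.64), with summed levels of 7267 on MF, 6599 on CF, 4714 on MM and 7229 on CM. The erythroid markers summed to 2046 on MF, 2809 on CF, 1480 on MM and 2379 on CM, with 2 of 10 higher and 3 lower in MF and 1 higher and 2 lower in MM. Of the 10 endothelial and stellate markers, 1 was higher and 2 lower in MF, and 0 were higher and 3 lower in MM, with summed levels between 77.1 and 110. All 40 of these markers were well above background on all arrays. The part of these shifts in the clock gene differences was not tested.

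The direction of a clock gene did not always survive another way of processing the arrays. Of 20 gene differences (10 genes in 2 comparisons), 12 kept their sign under every alternative and 8 did not. Those that kept it were both differences of Clock (-0.75 to -0.26 in females, 0.26 to 1.35 in males), of Dbp (-1.10 to -0.24 and 0.42 to 1.77), of Nr1d2 (-0.99 to -0.54 and 0.20 to 1.22) and of Per2, those of Arntl and Nr1d1 in males, and those of Cry1 and Cry2 in females. Nr1d1 in males stayed between -1.69 and -1.11, past 1.5-fold throughout.

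**Figure D4:**
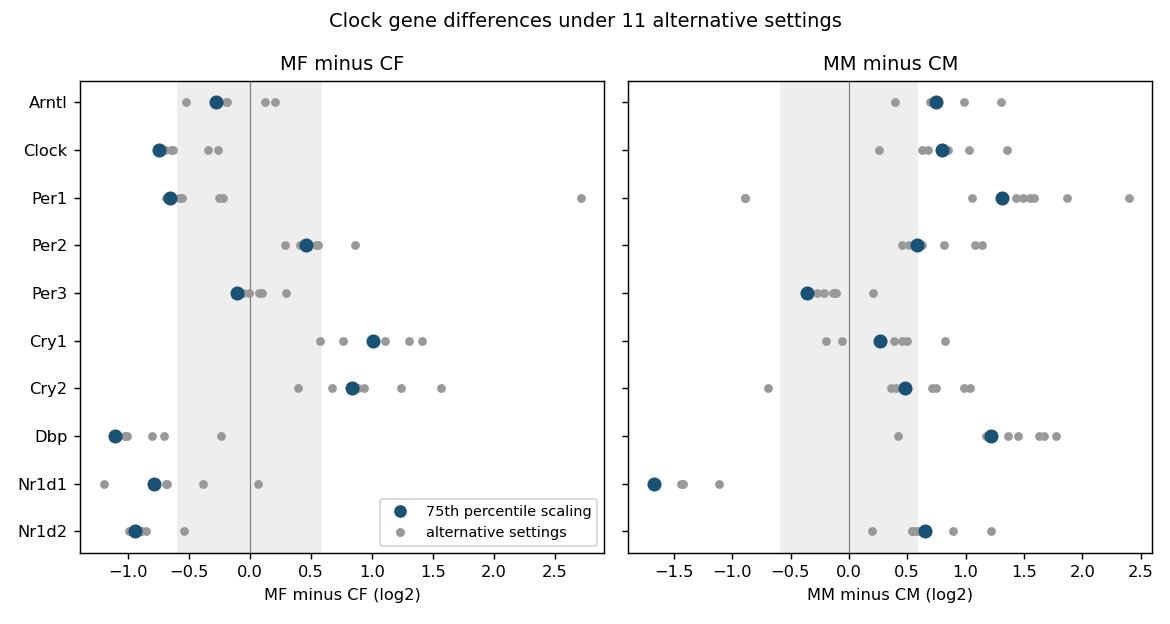
Difference M minus C of each clock gene (horizontal axis, log2) in females (left) and males (right), with the scaling to the 75th percentile as a large blue point and each alternative as a small grey point, where the grey band holds differences under 1.5-fold. Dbp, Clock and Nr1d2 stay left of 0 in females and right of 0 in males, and Per1 spreads from -0.69 to 2.71 in females.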

How the data were processed

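Total RNA of liver was labelled with Cy3 by the authors, hybridized to 1-colour Agilent SurePrint mouse arrays and quantified with Agilent Feature Extraction (version 10.7.3.1 per the file headers). The deposited intensity of a spot is the processed signal, with the background already subtracted by the software and no scaling between arrays, and the deposited table of values was checked to equal it in all 62976 spots. From these the log2 of each signal minus the 75th percentile of its array was computed. The 75th percentile was 893 on MF and 925 on MM, against 676 on CF and 628 on CM. Before scaling both M arrays were thus brighter than both C arrays, so the choice of scaling bears on every M minus C difference. The number of arrays limits the precision. A spot that the software had flagged as an outlier on 1 array was dropped from all 4 (1754 spots). Repeated spots were averaged per probe, and the brightest remaining probe stood for its gene. Genes entered a comparison if either array of the pair was well above background. Against an array below background the difference is a bound, taken against the higher of the probe's own signal and the lowest signal well above background there (log2 -5.98 for MF, -5.48 for CF, -5.65 for MM and -4.62 for CM).

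The 10 clock genes and the gene lists were chosen with earlier results of these data known, and the lists of intestine and heart were added because genes of these organs had been seen to differ between arrays. All clock genes are named, and from other lists those past 1.5-fold the same way in both sexes, at most 3, besides single genes that describe a list, which were chosen after their values were seen. limma 3.58.1 (R 4.3.3) was run with sex as a term, with Benjamini-Hochberg adjustment over all genes tested, and was tested on simulated data. The study names limma for its own tests. Whether the arrays are separate animals is not stated, so its p-values measure only the spread between these arrays. As alternatives the arrays were left unscaled, centred on their median, quantile normalized, or corrected by normexp (offset 50) before quantile normalization. Others were removal of trends with GC content or array position (mgcv 1.9.3), flagged spots kept, other filters on dim probes, the mean over probes, a 2-fold threshold, and for limma an intensity trend, no sex term and the threshold of the study. Leaving out flagged spots only on the arrays of a pair was chosen after seeing the data. Motifs and promoter sequences came from the RefSeq table of GRCm38.p6, and probe positions from the array annotation on mm9.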

Additional observations from a re-analysis of the deposited data

Results flagged for a closer look

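In 4 clock genes the microsomic array moved one way in females and the opposite way in males, past 1.5-fold in both. The female difference less the male difference (log2) was -2.31 for Dbp, -1.96 for Per1 by its dim probe, -1.60 for Nr1d2 and -1.54 for Clock. Of these 4 genes, only Dbp was past 2 SD of a difference of single spots in both sexes, and the share of all genes past it was not counted. Whether the sexes differ was not tested, since each group has 1 array. Among probes not used for their gene, the bright Per1 probe A_55_P1970033 gave 3.60, with an outlier flag on MF, and the second Cry2 probe A_55_P1953708 gave 4.16, and these differences were not tested either. Of all genes compared in both sexes, 9.81% passed 1.5-fold in opposite ways. The groups were too small for a search for outlying samples.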

How the results depend on the processing

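Of 218 alternative values of the clock gene differences, 205 kept their sign and 13 did not. Of the 13, 4 were values past 1.5-fold that changed sign, and 8 lay under it before and after. Of those that kept it, 177 stayed on their side of 1.5-fold, 18 fell below it and 10 came to pass it. Under normexp and quantile normalization, 3 genes passed in MF vs CF, their median was 0.0696, and Nr1d1 MF minus CF was 0.0672. Without scaling, 4 genes passed in MF vs CF (3 higher and 1 lower), and in MM vs CM 8 were higher and 1 lower, with a median of 1.18. Centred on the median, 7 were higher in MM. At 2-fold, 2 genes passed in MF vs CF and 3 in MM vs CM. With flagged spots kept, Per1 was 2.71 in MF minus CF and -0.89 in MM minus CM, the latter also with flags taken from the pair's own arrays. The mean over probes gave -0.69 for Cry2 in MM minus CM. The causes of these changes were not tested. limma called 10 genes past an adjusted p of 0.05 without scaling and 163 at the study's threshold (unadjusted p below 0.01 and over 1.5-fold), none of them a clock gene. With the position trend removed, 1 clock gene, Nr1d1 (-1.43, limma adjusted p = 0.792), was among 226 at that threshold, and the smallest adjusted p of a clock gene under any limma setting was 0.373. No paired analysis was possible because each group has 1 array and the labels carry no replicate numbers, so the sex term in limma is all that matches M with C arrays. Leaving out an array was not possible either, since it removes a group or the last residual degree of freedom. Dim probes limit Per1 and Per3, which were not well above background on 1 array each.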

Other observations

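Of 11 genes that glucocorticoids are known to raise, or that carry the response, 2 were higher and 1 lower in MF than in CF (median 0.32), and 3 were higher and 2 lower in MM than in CM (median 0.03). All genes compared gave 19.9% higher and 21.1% lower in females and 17.5% and 23.1% in males. None of the 11 passed 1.5-fold the same way in both sexes, as 6.93% of all genes did. Genes named here were chosen after their values were seen. Fkbp5, a chaperone partner of the receptor, stood at 4.83 on MF, 4.33 on CF, 4.58 on MM and 3.28 on CM (log2 level), and Tsc22d3, which encodes the leucine zipper protein GILZ, at 4.19, 3.63, 2.73 and 1.71. Both were past 1.5-fold in males only. Dusp1, a phosphatase, and Sgk1, a kinase, went the other way in males, at -1.53 and -0.93. Tat, the tyrosine aminotransferase that appears in rodent liver around birth, stood at 7.17 on CF and between 5.05 and 5.49 on the other arrays.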
